A study of Homo sapiens with 9 samples.

Results

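Tubulins are the proteins that microtubules are built from, and 10 human tubulin genes were followed here in U2OS cells treated with palbociclib. They were 3 alpha-tubulin genes (TUBA1A, TUBA1B, TUBA1C), 5 beta-tubulin genes (TUBB, TUBB2A, TUBB2B, TUBB4B, TUBB6) and both gamma-tubulin genes (TUBG1, TUBG2). They were chosen by symbol with results of these data known, so their differences between treatments and genotypes are given as descriptions, with fold changes and errors. How many passed the threshold of the test over all genes is given beside the share of all genes that did, and nothing is read from it. All 10 were among the 70116 gene IDs counted, and 9 passed the filter on low counts with 19408 genes in all. TUBB did not pass it.

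U2OS is a human osteosarcoma cell line, and palbociclib (PD) is an inhibitor of the cell-cycle kinases CDK4 and CDK6. Messenger RNA was sequenced from 3 groups of 3 libraries: wild-type U2OS given vehicle, wild-type U2OS given palbociclib for 4 days, and PERK knockout U2OS given palbociclib for 4 days. The knockout was made with CRISPR/CAS9 in U2OS. Whether it is 1 clone, how many lines stand behind it, and the palbociclib dose used are not given in these sources. No knockout cells on vehicle were among the libraries, so effects of the knockout without the drug were not measured. The libraries are numbered as sets 1 to 3 within each group, with no word on whether a set was a separate culture, so a p-value here reflects only how far libraries of a group scatter, and that scatter may be technical.

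Totals ran from 33674039 to 42577874 counts per library. EIF2AK3, the gene of the kinase PERK, was at 31.7 to 36.8 CPM (counts scaled to library size) in the 6 wild-type libraries and at 17.8 to 19.7 CPM in the 3 knockout libraries. CCND1, cyclin D1, was at 281 to 292 CPM on vehicle and at 640 to 673 CPM in the 6 palbociclib libraries. Summed over 6 mesenchymal and bone-lineage markers, all of them detected, the level was 5311 to 5681 CPM on vehicle, 7755 to 8822 CPM in wild-type cells on palbociclib and 8091 to 9882 CPM in knockout cells. COL1A1, at 2467, 4133 and 4527 CPM in group means, and SPARC, at 1732, 2731 and 3083 CPM, made up most of it. RUNX2, at 36.2, 38.8 and 29.5 CPM, was lower in knockout than in wild-type cells on the drug. Neuronal cells are rich in several of these tubulins. The 10 neuronal markers summed to 118.5 to 130.1 CPM on vehicle, 137.3 to 163.2 CPM in wild-type cells on palbociclib and 154.9 to 179.7 CPM in knockout cells. Most of that sum was NEFL, at 92.3, 93.5 and 94.1 CPM in group means. SYP, SYT1 and RBFOX3, named after their values were seen, differed far more in group means. SYP was at 4.06, 11.9 and 12.4 CPM, SYT1 at 2.13, 5.45 and 8.15 CPM, and RBFOX3 at 9.25, 17.2 and 36.0 CPM. SNAP25 was at 15.4, 19.2 and 14.6 CPM, GAP43 at 1.12, 1.23 and 1.86 CPM, and ELAVL4 at 0.310, 0.366 and 0.370 CPM. NEFM, DCX and ELAVL3 did not pass the low-count filter. On palbociclib in wild-type cells 4 of the 7 tested neuronal markers rose and 0 fell, where 21.3% of all genes rose and 22.3% fell. Between genotypes on the drug 3 rose and 1, SNAP25, fell, where 14.9% of all genes rose and 13% fell. The part of these differences in the tubulin values was not tested. The 6 epithelial markers summed to 31.8 to 34.8 CPM in wild-type and 20.8 to 22.4 CPM in knockout libraries, with KRT20 at 0. The 6 haematopoietic markers reached at most 0.751 CPM in sum, with CD3E and HBB at 0.

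Alpha- and beta-tubulin form the dimer that polymerises into microtubules, and gamma-tubulin sits in the ring complex that starts new microtubules. Cells also measure their free tubulin: when unpolymerised dimers accumulate, the protein TTC5 recognises the first amino acids of nascent alpha- and beta-tubulin on the ribosome, and SCAPER and the CCR4-NOT deadenylase then degrade the mRNA being translated. The different genes of a class encode closely similar proteins that differ mostly in their tails.

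The coding starts are shown because that mechanism reads the peptide they encode. Each line gives the first 30 coding bases, 5′ to 3′, of the main annotated transcript (GENCODE release 29), with the first 12 bases, that is 4 codons, in capitals.
TUBA1A: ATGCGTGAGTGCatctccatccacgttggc
TUBA1B: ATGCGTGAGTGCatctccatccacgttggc
TUBA1C: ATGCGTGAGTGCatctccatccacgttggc
TUBB: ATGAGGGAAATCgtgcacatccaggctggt
TUBB2A: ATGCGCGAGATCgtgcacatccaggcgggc
TUBB2B: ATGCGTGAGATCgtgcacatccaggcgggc
TUBB4B: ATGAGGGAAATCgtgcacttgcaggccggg
TUBB6: ATGAGGGAGATCgtgcacatccaggcgggc
TUBG1: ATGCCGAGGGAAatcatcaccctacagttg
TUBG2: ATGCCCCGGGAGatcatcaccctgcagctg
The 3 alpha genes were identical over these bases. Within the first 12 bases the beta genes differed only in codon choice, and TUBB and TUBB4B were identical. Beyond them TUBB4B had ttg, a leucine codon, where the other beta genes had atc, an isoleucine codon. Among the 10 genes there were 7 distinct versions of the first 12 bases.

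How alike these genes are also decides how well reads can be assigned to them. The last 60 coding bases, stop codon included, are shown for 1 pair of similar beta genes and for both gamma genes, with the bases that differ within a pair in capitals.
TUBB2A: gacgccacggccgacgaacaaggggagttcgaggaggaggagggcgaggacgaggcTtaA
TUBB2B: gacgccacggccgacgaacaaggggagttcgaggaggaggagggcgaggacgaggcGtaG
TUBG1: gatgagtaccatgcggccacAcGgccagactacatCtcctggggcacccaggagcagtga
TUBG2: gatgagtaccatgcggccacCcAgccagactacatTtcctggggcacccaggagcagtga
TUBB2A and TUBB2B had 2 differing bases in this stretch, and TUBG1 and TUBG2 had 3. Over the whole coding sequence the identity was 97.2% for TUBA1A with TUBA1B, 98.1% for TUBB2A with TUBB2B and 94.7% for TUBG1 with TUBG2. Of all 100-base windows of a transcript, the share also found in a transcript of another gene was 56.4% for TUBB2A, 46.2% for TUBB2B, 37.2% for TUBA1B, 18.3% for TUBA1A, 14.9% for TUBG1, 13.6% for TUBG2, 11.5% for TUBA1C, 2.86% for TUBB4B and 0% for TUBB6. No source used here gives the read length. With 50-base windows the share was 65.5% for TUBB2A, 62.7% for TUBA1B, 52.2% for TUBB2B and 41.1% for TUBA1A. It was 29.9% for TUBG1, 27.0% for TUBG2 and 25.1% for TUBA1C, and lower for the other members. Which levels are least certain therefore depends on the read length. Those of TUBB2A, TUBB2B, TUBA1B and TUBA1A are all uncertain as to which gene the reads came from. So is that of TUBG2, which shares windows with TUBG1, a gene counted at a far higher level.

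The genes lie in 6 regions of GRCh38. TUBA1A (ENSG00000167552.15, chr12:49184796-49189324, minus strand), TUBA1B (ENSG00000123416.15, chr12:49127782-49131397, minus) and TUBA1C (ENSG00000167553.17, chr12:49188736-49274603, plus) are neighbours. TUBB2A (ENSG00000137267.7, chr6:3153669-3157526, minus) and TUBB2B (ENSG00000137285.11, chr6:3224261-3231730, minus) form the next cluster. TUBG1 (ENSG00000131462.9, chr17:42609676-42615234, plus) and TUBG2 (ENSG00000037042.9, chr17:42659305-42667006, plus) form another. TUBB (ENSG00000196230.14, chr6:30720201-30725426, plus), TUBB4B (ENSG00000188229.6, chr9:137241213-137243707, plus) and TUBB6 (ENSG00000176014.13, chr18:12307669-12344320, plus) lie apart. No source used here gives the strand setting of the counting, and some genes overlap a gene on the other strand. The overlapping partner was at a mean of 92.2 CPM for TUBB6 (AFG3L2), 43.0 CPM for TUBG1 (RETREG3) and 8.39 CPM for TUBB2B (PSMG4). The spans of TUBA1A and TUBA1C also overlap.

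TUBB, an abundantly used beta-tubulin gene in many dividing cells, was listed near 0, with 5 counts over the 9 libraries and at most 2 in 1 library. Other widely used genes beside it on chromosome 6 were also listed near 0, among them ABCF1, GNL1 and FLOT1 at 0 and CSNK2B at 2 counts. Of the 182 protein-coding genes between 29 and 34 Mb of that chromosome, 120 (65.9%) were listed at 0 in every library, against 2360 of 19855 (11.9%) over the genome. TUBB was therefore not read as unexpressed, no fold change is given for it, and every sum over beta-tubulin genes here lacks it.

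In the 3 alpha genes, the level of TUBA1A was higher on palbociclib and the levels of TUBA1B and TUBA1C were lower. TUBA1A, the alpha gene best known from developing neurons, was at 187, 224 and 253 CPM in wild-type cells on vehicle (sets 1, 2 and 3), at 402, 409 and 403 CPM in wild-type cells on palbociclib, and at 392, 384 and 394 CPM in knockout cells on palbociclib. Every palbociclib library was above every vehicle library, and the vehicle libraries were the most spread. In bulk RNA, a change in how many cells carry an mRNA and a change in its amount per cell cannot be told apart. The log2 fold change on palbociclib in wild-type cells was 0.87 ± 0.079 (SE, edgeR), a ratio of means of 1.83. Between knockout and wild-type cells on the drug it was -0.05 ± 0.079, although the 3 knockout values lay just below the 3 wild-type values.

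TUBA1B, the most counted alpha gene, was at 698, 652 and 672 CPM on vehicle, 440, 446 and 375 CPM in wild-type cells on palbociclib, and 464, 444 and 389 CPM in knockout cells. The vehicle libraries stood clear of the 6 drug-treated ones, which overlapped between genotypes. The log2 fold change was -0.68 ± 0.071 for the drug and 0.04 ± 0.070 for the knockout. TUBA1C was at 461, 418 and 432 CPM on vehicle, 381, 374 and 326 CPM in wild-type cells on palbociclib and 380, 348 and 311 CPM in knockout cells. Its drug difference was smaller, with a log2 fold change of -0.28 ± 0.073, and its knockout difference was -0.06 ± 0.073, with overlapping ranges.

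**Figure D1:**
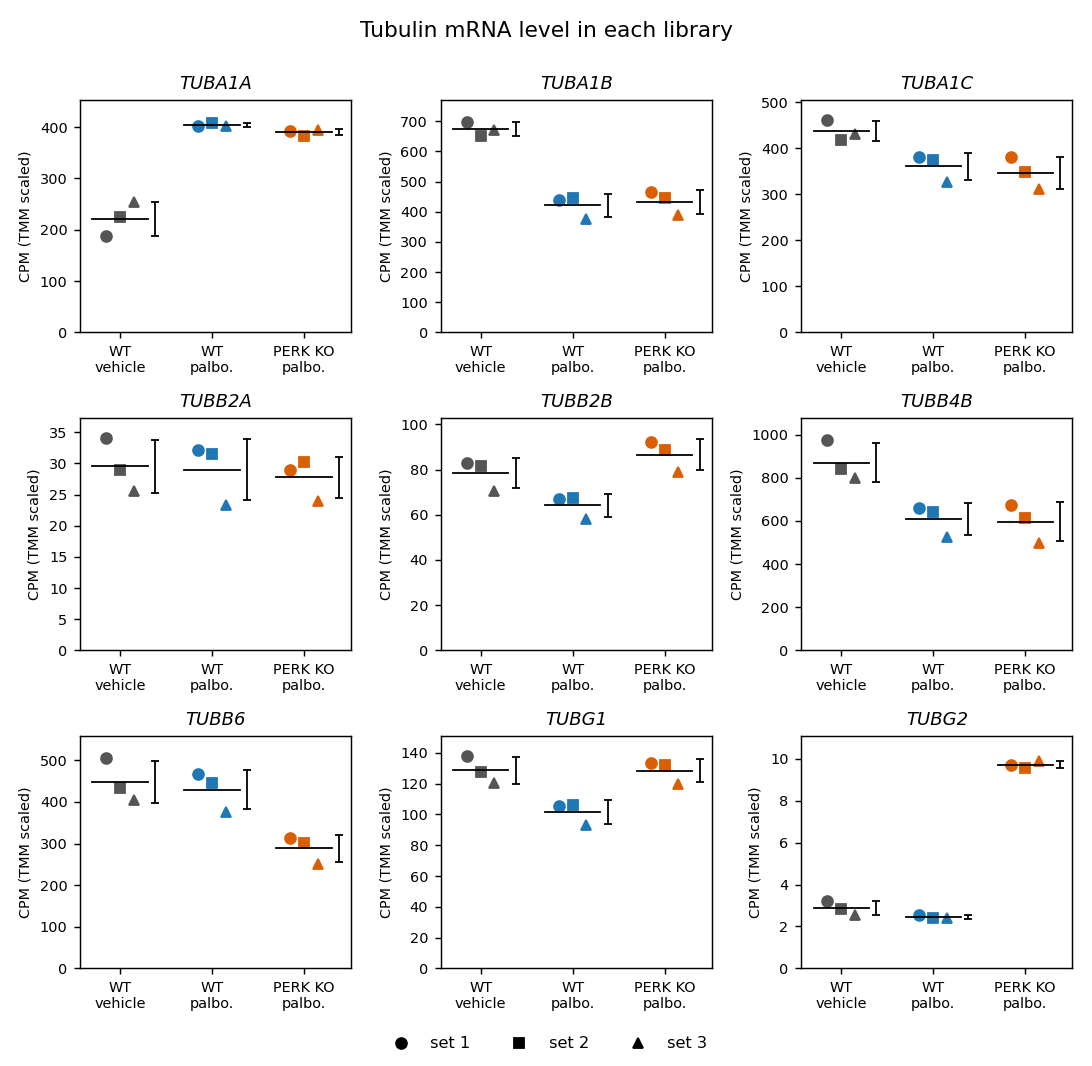
Level of the 9 tubulin genes that passed the low-count filter in each library, in CPM scaled by TMM factors, each vertical axis starting at 0. Points are libraries (shape gives the set), horizontal lines are group means and the bars beside them span the mean ± SD of 3 libraries. TUBA1A stands higher in the 6 palbociclib libraries, TUBA1B and TUBB4B stand lower there, and TUBB6 and TUBG2 differ between the knockout and wild-type libraries.

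The plot of levels by library shows that the tested beta genes differed in pattern. TUBB4B, a broadly expressed beta-tubulin and the most counted tubulin here, was at 975, 839 and 798 CPM on vehicle, 662, 643 and 525 CPM in wild-type cells on palbociclib and 676, 616 and 500 CPM in knockout cells. All drug-treated libraries were below all vehicle libraries, with overlap between the genotypes. The log2 fold change was -0.51 ± 0.139 for the drug and -0.03 ± 0.139 for the knockout. TUBB2B, a beta gene with high levels in developing brain, was at 82.7, 81.7 and 70.6 CPM on vehicle, 67.0, 67.3 and 58.0 CPM in wild-type cells on palbociclib and 92.3, 88.6 and 78.9 CPM in knockout cells. It was lower on the drug in wild-type cells (log2 fold change -0.29 ± 0.076) and higher in knockout than in wild-type cells on the drug (0.43 ± 0.076), and neither pair of groups overlapped.

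TUBB6, a divergent beta-tubulin, was at 505, 433 and 405 CPM on vehicle, 467, 446 and 376 CPM in wild-type cells on palbociclib and 313, 302 and 252 CPM in knockout cells. The wild-type groups overlapped (log2 fold change -0.06 ± 0.117), and the 3 knockout libraries were below the other 6, with -0.57 ± 0.117 against wild-type cells on the drug. TUBB2A, the near copy of TUBB2B, was at 34, 29 and 25.5 CPM on vehicle, 32.2, 31.4 and 23.4 CPM in wild-type cells on palbociclib and 29, 30.3 and 24.0 CPM in knockout cells. Its 3 groups overlapped, with log2 fold changes of -0.03 ± 0.154 for the drug and -0.06 ± 0.154 for the knockout.

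The gamma genes were far apart in level. TUBG1, which supplies most gamma-tubulin in dividing cells, was at 138, 128 and 120 CPM on vehicle, 106, 106 and 92.9 CPM in wild-type cells on palbociclib and 133, 132 and 120 CPM in knockout cells. The wild-type drug-treated libraries were below the other 6, and the knockout libraries overlapped the vehicle libraries. The log2 fold change was -0.34 ± 0.062 for the drug, 0.34 ± 0.062 for the knockout on the drug, and -0.00 ± 0.062 for knockout cells on the drug against wild-type cells on vehicle.

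TUBG2, the second gamma gene, was at 3.22, 2.81 and 2.56 CPM on vehicle, 2.56, 2.40 and 2.42 CPM in wild-type cells on palbociclib and 9.69, 9.56 and 9.89 CPM in knockout cells. These values rest on 127, 116 and 93 counts, on 87, 89 and 92 counts, and on 390, 331 and 417 counts. The knockout libraries were all above the other 6. The ratio of means was 3.95 between knockout and wild-type cells on the drug (log2 fold change 1.98 ± 0.118) and 3.39 against wild-type cells on vehicle. The drug difference in wild-type cells was -0.22 ± 0.132, with overlapping ranges.

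Counted over the 9 genes, 1 was higher and 5 were lower past the threshold (Benjamini-Hochberg adjusted p under 0.05, edgeR quasi-likelihood F test over all 19408 genes) for palbociclib in wild-type cells, where 43.7% of all genes passed it (21.3% higher and 22.3% lower). For knockout against wild-type cells on the drug, 3 were higher and 1 was lower, where 27.9% of all genes passed (14.9% higher and 13% lower). For knockout cells on the drug against wild-type cells on vehicle, 2 were higher and 4 were lower, where 51.7% passed (25.7% higher and 26% lower), and with the set as a replicate block 3 were higher and 4 lower because TUBB2B was added. The median log2 fold change of the 9 genes was -0.28, -0.03 and -0.09 in the 3 comparisons, beside -0.02, 0.01 and -0.01 over all genes tested. The comparisons share libraries: the wild-type drug-treated group enters the first and second, and the last reuses the other groups of both.

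**Figure D2:**
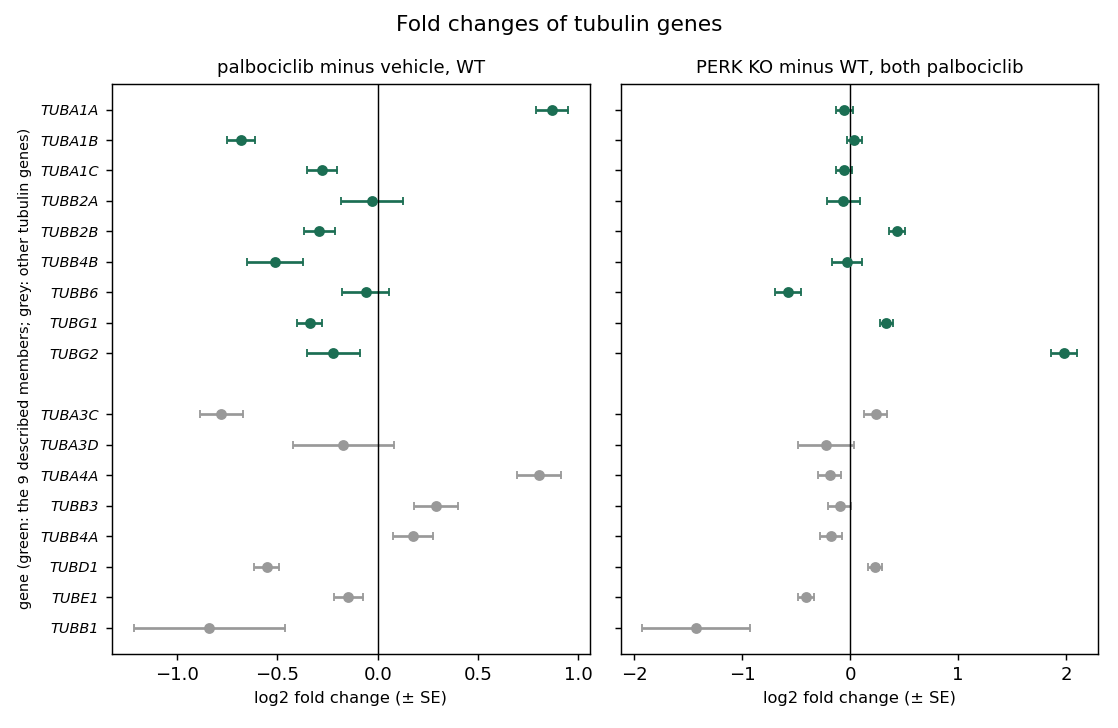
Log2 fold change of each tubulin gene (points, with bars of ± 1 SE from the edgeR model) for palbociclib minus vehicle in wild-type cells (left) and for PERK knockout minus wild type, both on palbociclib (right). The described members are in green and the other tubulin genes in grey, and TUBG2 lies farthest from 0 on the right, at 1.98.

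The plot of fold changes sets the other tubulin genes beside these. Of 13 listed, 8 were tested, and for palbociclib in wild-type cells 2 rose and 2 fell. With the set as a replicate block 3 rose and 3 fell, with TUBB4A (edgeR adjusted p = 0.0204) and TUBB1 (edgeR adjusted p = 0.042) added. TUBA4A, an alpha-tubulin gene used in platelets, nerve and muscle, rose from 52.8 ± 3.06 to 92.1 ± 10.3 CPM (SD, n = 3 each, log2 fold change 0.80, edgeR adjusted p = 0.000224). TUBA3C, whose mRNA is best known from testis, fell from 309 ± 17.2 to 180 ± 21.3 CPM (-0.78, edgeR adjusted p = 0.000288). It shared 2.13% of its 100-base windows and 16.6% of its 50-base windows with other genes. TUBD1, the delta-tubulin of centrioles, fell from 38.5 ± 2.64 to 26.2 ± 1.20 CPM (-0.55, edgeR adjusted p = 8.73e-07). TUBB3, a neuronal beta gene, rose from 5.90 ± 0.479 to 7.21 ± 0.591 CPM (0.29, edgeR adjusted p = 0.0394), a call lost without vehicle library 2 or 3 or wild-type palbociclib library 1 or 3 (adjusted p = 0.0893, 0.144, 0.0511 and 0.116). An annotated transcript of another gene shares most of the TUBB3 sequence, 89.0% of its windows.

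Between genotypes on palbociclib, 1 of the 8 rose and 2 fell, and with the set as a replicate block 2 rose and 4 fell. TUBE1, epsilon-tubulin, fell from 15.7 ± 0.809 to 11.8 ± 0.549 CPM in knockout cells (-0.41, edgeR adjusted p = 0.000328). TUBD1 rose from 26.2 ± 1.20 to 30.7 ± 1.58 CPM (0.23, edgeR adjusted p = 0.0122), a call lost when library 1 of either genotype on the drug was left out (adjusted p = 0.0698 for wild type and 0.0646 for knockout, with 1 call then left among the 8). TUBB1, the platelet beta gene, fell but stayed at or under 0.5 CPM in all 6 libraries, and its call was lost without any of 4 of these 6 libraries (adjusted p = 0.0528 to 0.174). TUBA3C was at 180 ± 21.3 and 213 ± 26.8 CPM (edgeR adjusted p = 0.14, against 8.35e-05 in the blocked fit). TUBA4A was at 92.1 ± 10.3 and 81.0 ± 11.3 CPM (edgeR adjusted p = 0.24, and 0.00249 with the block). TUBB4A was at 27.3 ± 3.38 and 24.2 ± 1.85 CPM (edgeR adjusted p = 0.219, and 0.0324 with the block).

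Levels of different genes were compared per kilobase of the main transcript. On vehicle the order was TUBB4B at 532 ± 56.5 CPM per kb, TUBA1B at 414 ± 14.3, TUBB6 at 217 ± 24.9, TUBA1C at 146 ± 7.23, TUBA1A at 116 ± 17.2, TUBG1 at 79.8 ± 5.41, TUBB2B at 38.8 ± 3.33, TUBB2A at 18.5 ± 2.68 and TUBG2 at 1.63 ± 0.188 (mean ± SD, n = 3). No neighbours in that order overlapped between their 3 libraries. In wild-type cells on palbociclib TUBA1A reached 211 ± 1.95 CPM per kb beside 208 ± 23.2 for TUBB6, and these did not differ beyond their spread. TUBB4B (373 ± 45.2) and TUBA1B (258 ± 24.2) stayed ahead of both by this measure. Without division by length, TUBA1B (440, 446 and 375 CPM) overlapped TUBA1A (402, 409 and 403 CPM) and TUBB6 (467, 446 and 376 CPM) there. In knockout cells TUBA1A came after TUBB4B and TUBA1B at 204 ± 2.93 CPM per kb, and TUBB6 at 139.9 ± 15.7 and TUBA1C at 115 ± 11.5 had overlapping ranges. In CPM the ranges of TUBA1A and TUBA1B overlapped there too. The CPM mean of TUBA1C (380, 348 and 311) was above that of TUBB6 (313, 302 and 252). The order of genes close in level thus depends on the transcript length assumed.

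The members were then summed by class. Those of the alpha class came to 1333 ± 33.3 CPM on vehicle, 1186 ± 70.8 CPM in wild-type cells on palbociclib and 1169 ± 71.6 CPM in knockout cells, log2 ratios of -0.17 for the drug and -0.02 for the knockout. The beta class, without TUBB, summed to 1426 ± 153, 1133 ± 132 and 1000.1 ± 131 CPM, log2 ratios of -0.33 and -0.18, and the genotypes overlapped. The gamma class summed to 131 ± 9.04, 104 ± 7.68 and 138 ± 7.40 CPM, log2 ratios of -0.34 and 0.41.

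Within the alpha genes, counted per kilobase with the other alpha-tubulin genes included, TUBA1A made up 12.9% ± 2.03 on vehicle, 28.3% ± 1.97 in wild-type cells on palbociclib and 26.9% ± 2.17 in knockout cells. TUBA1B made up 46.0% ± 0.59, 34.4% ± 0.81 and 34.9% ± 0.71, and TUBA1C 16.2% ± 0.464, 16.0% ± 0.322 and 15.2% ± 0.547. TUBA3C took 22.2%, 15.5% and 18.0%, and TUBA4A 2.71%, 5.68% and 4.93%. TUBA1A and TUBA4A thus took a larger share on the drug, and TUBA1B and TUBA3C a smaller one. The transcript length assumed matters most for TUBA1C, whose share on vehicle was 25.8% when coding length was used, an alternative added after the data were seen. By coding length TUBA1A and TUBA1B took 27.8% and 28.7% in wild-type cells on palbociclib.

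**Figure D3:**
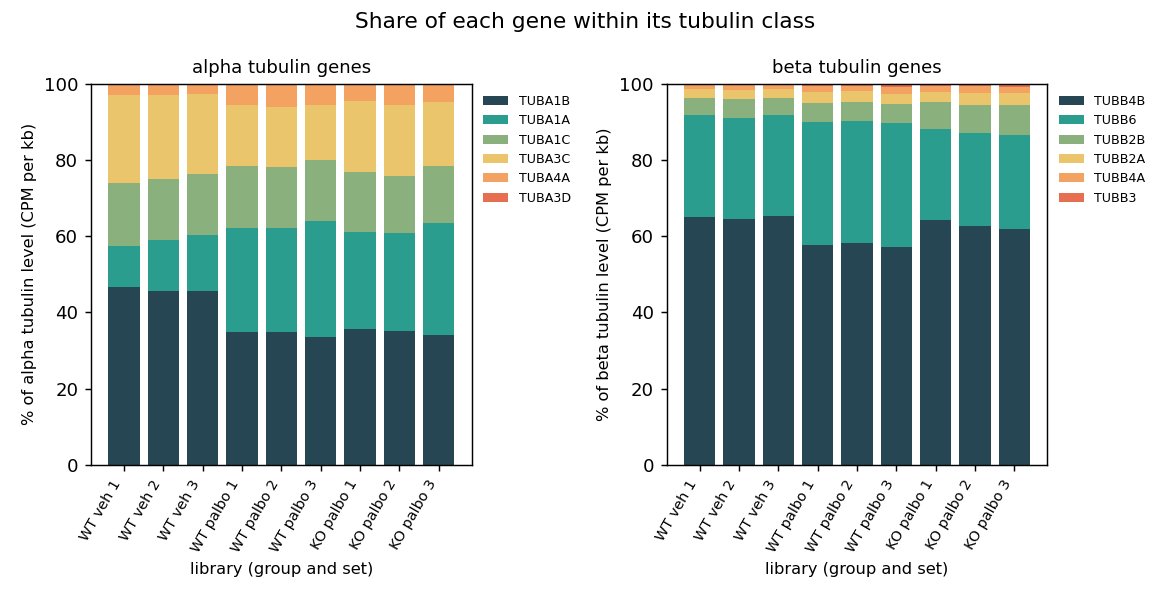
Share of each gene in the summed level (CPM per kilobase of the main transcript) of the alpha-tubulin genes (left) and beta-tubulin genes (right), as stacked bars for each library, from 0 to 100%. The TUBA1A share is 12.9% on average on vehicle and 28.3% in wild-type cells on palbociclib, and the TUBB6 share is 32.3% there and 24.2% in knockout cells on palbociclib.

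Among the beta genes in the plot of shares, TUBB4B took 64.9% ± 0.409 on vehicle, 57.7% ± 0.485 in wild-type cells on palbociclib and 63.0% ± 1.31 in knockout cells. TUBB6 took 26.5% ± 0.198, 32.3% ± 0.229 and 24.2% ± 0.561. TUBB2B took 4.75%, 4.93% and 7.45%, and TUBB2A 2.25%, 2.80% and 3.02%. TUBB6 therefore had its largest share in wild-type cells on the drug, where its own libraries overlapped those on vehicle while those of TUBB4B were lower. In the gamma class TUBG2 took 1.99% ± 0.0923, 2.17% ± 0.154 and 6.49% ± 0.466, and the rest was TUBG1. These shares over the beta genes hold only among the genes counted, since TUBB was listed near 0.

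Most tubulin genes also differed between the numbered sets. In the model with set as a block, 7 of the 9 genes differed between sets at an adjusted p under 0.05, where 8.07% of all genes tested did. TUBB4B was lower in set 3 than in set 1 by -0.35 on the log2 scale (edgeR adjusted p = 5.95e-07), TUBB2A by -0.38 (edgeR adjusted p = 5.82e-05) and TUBB6 by -0.31 (edgeR adjusted p = 2.55e-06). TUBG1, TUBB2A, TUBB2B, TUBB4B and TUBB6 each had their lowest value of every group in set 3. TUBA1A (edgeR adjusted p = 0.461) and TUBG2 (edgeR adjusted p = 0.862) missed the threshold between sets. All 8 RNA quality genes, 6 of them mitochondrially encoded and 2 nuclear retained RNAs, also differed between sets, and their part in the tubulin differences was not tested. One of them, the nuclear retained RNA NEAT1, also rose in knockout against wild-type cells on the drug, from 690 ± 158 to 1464 ± 219 CPM (log2 fold change 1.09, edgeR adjusted p = 0.00603), and its part in the knockout differences of the tubulins was not tested. Removing the set differences narrowed the errors of the beta genes: the SE of the TUBB4B drug difference was 0.040 with the block, and that of the TUBB6 knockout difference was 0.039.

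The genes around each tubulin gene were examined in the same comparison. The median log2 fold change between knockout and wild-type cells on palbociclib was taken over the tested protein-coding genes, tubulins left out, within 5 Mb of each gene. Around TUBB6 it was -0.49 over 31 genes, and TUBB6 differed from it by -0.08, with 22 of the 31 genes above TUBB6. Around TUBG1 it was 0.26 over 153 genes, and TUBG1 differed from it by 0.07, with 54 genes above it. Around TUBD1, one of the other tubulin genes, it was 0.15 over 80 genes, and TUBD1 differed from it by 0.08, with 28 genes above it. The knockout differences of these genes were thus close to those of their neighbours, whose part in them was not tested. TUBE1 differed by -0.39 from its neighbours (-0.01 over 43 genes), with 42 of them above it. TUBB1, at or under 0.5 CPM, differed by -1.30 from its own (-0.12 over 77 genes).

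TUBG2 and TUBB2B stood apart from their regions. TUBG2 was 1.72 above the median of its neighbours (0.26 over 152 genes), with 1 of them above it, and none of the 32 within 0.5 Mb. TUBB2B was 0.54 above its neighbours (-0.10 over 32 genes), with 1 above it, while TUBB2A beside it was 0.04 above them. For the drug in wild-type cells the neighbour medians lay near 0. There TUBA1A exceeded all but 2 of its 113 neighbours, and 105 of 112 neighbours were above TUBA1B, in the same region.

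**Figure D4:**
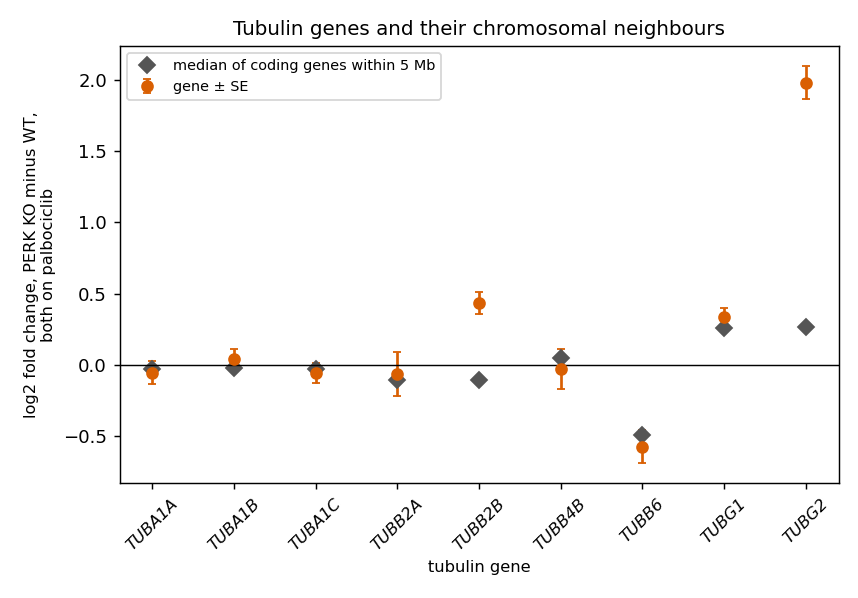
Log2 fold change of each of the 9 tubulin genes for PERK knockout minus wild type, both on palbociclib (orange points, bars ± 1 SE), beside the median of the tested protein-coding genes within 5 Mb (grey diamonds). TUBB6 and TUBG1 lie near their neighbours' medians of -0.49 and 0.26, and TUBG2 and TUBB2B lie above theirs.

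For the most counted gene of each class, the non-tubulin genes with the most similar course over the 9 libraries were found by the root mean square difference of centred log2 CPM. For TUBA1B they were NCAPH, a condensin subunit (0.0311), KIF11, a spindle kinesin (0.0380), and ZWINT, a kinetochore protein (0.0412). NCAPH was at 200.5, 122 and 128 CPM on average in the 3 groups. For TUBB4B they were ACAT2, an enzyme of lipid metabolism (0.0571), INCENP of the chromosomal passenger complex (0.0586) and the mitotic kinase PLK1 (0.0590). For TUBG1 they were JADE1 (0.0203), CCDC85C (0.0304) and YWHAH, a 14-3-3 protein (0.0358). These likenesses are descriptions over libraries that share groups and sets.

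The proteins that act on tubulin were followed through 5 lists: nucleation, folding, autoregulation, modification and microtubule dynamics. With the other tubulin genes these held 123 genes, of which 107 were tested. On palbociclib in wild-type cells 18 rose and 45 fell, and between knockout and wild-type cells on the drug 17 rose and 20 fell. With the set as a block the latter became 21 and 34, and without wild-type palbociclib library 1 the number that fell was 13. The lists are described by counts, beside the shares for all genes given above, and by medians. Median log2 fold changes on the drug were -0.42 for nucleation, -0.19 for folding, -0.13 for autoregulation, -0.04 for modification and -0.02 for dynamics. In the same order they were 0.01, -0.03, -0.01, 0.04 and -0.07 for knockout against wild-type cells on the drug. Over all genes tested the medians were -0.02 and 0.01.

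Among 21 tested genes of the gamma-tubulin ring complex and of microtubule nucleation, 1 rose and 14 fell on palbociclib, and the median log2 fold change was -0.42. The gene that rose was AKAP9, a call that needed vehicle libraries 1 and 3 and libraries 1 and 2 of wild-type cells on palbociclib. HAUS8, of the augmin complex, fell from 21.1 ± 0.629 to 13.2 ± 1.38 CPM (-0.68, edgeR adjusted p = 4.25e-06). TUBGCP3, a core subunit of the ring complex that binds gamma-tubulin, fell from 107 ± 3.99 to 67.9 ± 6.79 CPM (-0.65, edgeR adjusted p = 1.42e-06). In knockout against wild-type cells on the drug 5 rose and 3 fell. With the set as a block or without knockout library 1, 5 fell, and without wild-type palbociclib library 3, 3 rose and 5 fell. TUBGCP2, the partner of TUBGCP3, rose from 71.0 ± 1.45 to 106 ± 3.24 CPM (0.58, edgeR adjusted p = 2.91e-08), and HAUS4 rose from 13.6 ± 0.242 to 17.8 ± 1.25 CPM (0.39, edgeR adjusted p = 0.000649).

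New tubulin is folded by prefoldin, the CCT chaperonin and the tubulin cofactors. Of 18 tested genes, 1 rose and 12 fell on palbociclib (median -0.19), and none rose when vehicle library 3, or library 1 of wild-type cells on the drug, was left out. The chaperonin subunit CCT5 fell from 693 ± 17.7 to 485 ± 14.2 CPM (-0.51, edgeR adjusted p = 4.69e-08), and TCP1, another subunit, fell from 463 ± 2.41 to 348 ± 9.92 CPM (-0.41, edgeR adjusted p = 5.05e-07). Between genotypes on the drug 1 rose and 3 fell, and with the set as a block 3 rose and 7 fell, while 5 fell without wild-type palbociclib library 3. The prefoldin subunit PFDN2 fell from 55.5 ± 0.463 to 32.9 ± 1.07 CPM in knockout cells (-0.76, edgeR adjusted p = 1.14e-09), and PFDN4 fell from 54.2 ± 1.60 to 44.1 ± 2.43 CPM (-0.30, edgeR adjusted p = 0.000572).

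For the autoregulation of tubulin mRNA, 10 of 12 genes were tested. TTC5, which reads the nascent peptide, on chromosome 14, was listed at 0 in all 9 libraries. Other widely used genes outside chromosome 6 were also listed near 0, among them CNOT10 at 0, PFDN5 with 1 count and CCT8 with 2, so it was not read as absent. SCAPER, its adaptor, was at 21.6 ± 1.17, 23.3 ± 1.45 and 25.3 ± 0.916 CPM in the 3 groups (edgeR adjusted p = 0.203 for the drug and 0.227 for the knockout). The other 9 are CCR4-NOT subunits. On palbociclib 0 of the 10 rose and 4 fell, and with the set as a block 7 fell. CNOT3 fell from 13.2 ± 1.64 to 9.70 ± 0.622 CPM (-0.44, edgeR adjusted p = 0.000868), and CNOT9 fell from 113 ± 1.43 to 88.0 ± 4.86 CPM (-0.36, edgeR adjusted p = 1.17e-05). In knockout cells 1 rose and 1 fell: CNOT3 rose to 12.5 ± 0.723 CPM (0.37, edgeR adjusted p = 0.00688), and the deadenylase CNOT7 fell from 128 ± 4.29 to 97.2 ± 3.23 CPM (-0.40, edgeR adjusted p = 1.95e-06).

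Among 21 tested enzymes that modify tubulin, 4 rose and 6 fell on palbociclib. The glutamylase genes TTLL1 and TTLL7 rose from 4.62 ± 0.221 to 6.10 ± 0.433 CPM (0.40, edgeR adjusted p = 0.00529) and from 8.13 ± 0.511 to 10.3 ± 0.591 CPM (0.34, edgeR adjusted p = 0.00676). Between genotypes 3 rose and 4 fell, with 5 rises without wild-type palbociclib library 3 and 2 falls without knockout library 2. VASH1, a tubulin tyrosine carboxypeptidase, rose from 30.8 ± 1.58 to 36.5 ± 2.76 CPM (0.24, edgeR adjusted p = 0.00679, and 0.051 without knockout library 3). Its partner SVBP fell from 9.38 ± 0.616 to 7.45 ± 0.0396 CPM (-0.33, edgeR adjusted p = 0.0198), and 4 of the 6 libraries were each needed for that call (adjusted p = 0.0528 to 0.0591 without them).

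Of 29 tested genes for proteins that bind, sever or destabilise microtubules, 10 rose and 7 fell on palbociclib. DCLK1, a microtubule-associated kinase, rose from 6.31 ± 1.34 to 12.5 ± 1.01 CPM (0.98, edgeR adjusted p = 1.82e-06), and MAPRE3, an end-binding protein, rose from 18.6 ± 0.537 to 30.5 ± 1.09 CPM (0.71, edgeR adjusted p = 2.45e-08). Between genotypes on the drug 6 rose and 7 fell, 13 calls that became 8 without wild-type palbociclib library 1 or 2 and 7 without knockout library 3. With the set as a block 6 rose and 11 fell. MAP2 fell from 19.7 ± 0.194 to 11.5 ± 2.27 CPM in knockout cells (-0.78, edgeR adjusted p = 0.000118). MAP1A rose from 323 ± 32.1 to 429 ± 34.2 CPM (0.41, edgeR adjusted p = 0.0385), a call that was lost without any 1 of the 6 palbociclib libraries (adjusted p = 0.0554 to 0.118).

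Promoters are shown for the members with the largest rise and fall on palbociclib, TUBA1A and TUBA1B, which lie in the same cluster, and for TUBB4B, added after its values were seen. Each is the 250 bases before the annotated start in RefSeq on GRCh38.p14, read 5′ to 3′ along the gene's strand: TUBA1A at chr12:49189081-49189330 (minus), TUBA1B at chr12:49131396-49131645 (minus) and TUBB4B at chr9:137241037-137241286 (plus). Capitals mark CCAAT, the box bound by NF-Y, and TTTGAA, a core of the cell-cycle element called CHR, each on either strand.
TUBA1A: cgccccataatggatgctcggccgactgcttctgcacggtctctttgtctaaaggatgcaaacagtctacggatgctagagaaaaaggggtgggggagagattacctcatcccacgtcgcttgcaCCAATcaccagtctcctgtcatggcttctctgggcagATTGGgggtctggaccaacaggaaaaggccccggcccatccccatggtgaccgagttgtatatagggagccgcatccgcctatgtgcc
TUBA1B: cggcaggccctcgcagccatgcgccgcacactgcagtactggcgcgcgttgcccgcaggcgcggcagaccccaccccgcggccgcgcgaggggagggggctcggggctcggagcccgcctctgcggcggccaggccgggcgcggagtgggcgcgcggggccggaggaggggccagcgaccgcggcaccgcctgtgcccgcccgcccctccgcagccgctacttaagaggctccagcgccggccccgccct
TUBB4B: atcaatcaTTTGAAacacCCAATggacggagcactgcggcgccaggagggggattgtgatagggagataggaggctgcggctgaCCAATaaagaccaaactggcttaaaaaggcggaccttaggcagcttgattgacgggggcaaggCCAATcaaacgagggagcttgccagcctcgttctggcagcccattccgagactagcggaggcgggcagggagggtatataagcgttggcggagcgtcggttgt
TUBA1A held 2 CCAAT matches, TUBA1B held none of the motifs searched, and TUBB4B held 3 CCAAT and 1 TTTGAA. Of all 35116 RefSeq windows of this length, 32.0% held CCAAT and 13.3% held TTTGAA. The E2F motif, searched as TTTGGCGC, TTTCCCGC, TTTCGCGC and TTTGCCGC on both strands, was found in 2.79% of windows, and TUBG1 held 1 match beside 1 CCAAT. TUBG2 and TUBB2B each held 1 CCAAT, and the single TUBB2A window held none of the 3 motifs. Each of the 3 TUBA1C windows held 1 CCAAT, and its windows 1 and 3 also held 1 and 2 TTTGAA. Window 1 of TUBB and window 2 of TUBB6 each held 1 CCAAT, and the other window of each held none. A match is only a run of letters in this window, and no binding was measured.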

How the data were processed

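RNA was column purified, captured on poly-T beads, fragmented and reverse transcribed from random hexamers, per the labels' protocols. The deposited values are raw read counts per gene, 1 column per library, not normalized. The submitters' processing notes list STAR 2.7.9a, DESeq2 and the build hg38, among others, without their roles. Counter, strand setting and annotation release are not given in these sources. Of 70116 IDs, 62700 had a symbol and 58261 a GENCODE 29 position. Where a symbol had several IDs, the most counted one was used.

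Counts were tested with edgeR 4.0.16 (limma 3.58.1, R 4.3.3): TMM factors (0.977 to 1.01), the default low-count filter (19408 genes holding 99.91% of counts), and 1 model of 3 groups over 9 libraries with the quasi-likelihood F test. The biological coefficient of variation was 5.99%. Benjamini-Hochberg adjustment ran over all genes tested, with a threshold of 0.05. The SE of a log2 fold change is its size divided by the root of F. CPM values are scaled by TMM factors. The tested members had at least 87 counts in every library. The fit without the block was checked on simulated counts for the drug comparison only. Those counts held no set differences, so the check does not cover the block or libraries that deviate together.

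Same-numbered libraries deviated together from their group means (r = 0.176 to 0.541 for 9 pairs, -0.401 to 0.071 between different sets, over 12932 genes), so the set number was used as a pairing in the replicate block. The pairing comes from the data, since the labels do not say what a set is. Alternatives were RLE factors, no filter, DESeq2 1.42.0, limma-voom, the 6 libraries compared alone, the block, and leaving out each library. The test between sets, the closer 0.5 Mb neighbourhood and shares by coding length were added after the data were seen.

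The members and the lists were chosen with earlier results of these data known. Named genes are all members, all tested genes of the other tubulins, TTC5, SCAPER, EIF2AK3, CCND1, and per list the 2 called genes with the largest fold change at 5 CPM or more in the drug and the knockout comparison; others, such as ABCF1, AFG3L2 and KRT20, were named after their values were seen. TUBA3D (0.81 to 1.07 CPM in group means) passed no threshold. Sequences came from GENCODE 29 transcripts and RefSeq promoters, matched for all 10 members. Protein sequences were not used here. Coding sequences were aligned with Biopython 1.88.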

Additional observations from a re-analysis of the deposited data

How the results depend on the processing

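The number of tested tubulin members past the threshold was 5 to 6 for the drug, 4 for the knockout and 6 to 7 for the third comparison, over RLE factors, no filter, DESeq2, limma-voom, the 6 libraries alone, the replicate block and leaving out each library in turn. In the main fit 43.7%, 27.9% and 51.7% of all genes passed it in these comparisons, and nothing is read from the member counts. For the tubulin pathway genes, leaving out 1 library gave 53 to 63, 26 to 41 and 62 to 71 calls, beside 63, 37 and 70. With the replicate block the pathway counts were 74, 55 and 76, and the member counts 6, 4 and 7. Over all genes tested the block gave 4714 higher and 5048 lower for the drug, and 3786 and 3282 for the knockout. For the third comparison it gave 5551 and 5603. The member and pathway totals stayed within 1.5 times their values. Counts of single lists and their splits did not always, and those are given beside them. No fold change past the threshold changed sign. Of the members' fold changes short of it, 8 did in at least 1 setting, among them TUBA1B (-0.05 to 0.11), TUBA1C (-0.14 to 0.01) and TUBB4B (-0.14 to 0.08) for the knockout, TUBB6 (-0.13 to 0.05) for the drug and TUBB2A in all 3 comparisons. Of the members' fold changes under these settings 410 moved by less than the spread between replicates, and 4 moved by more, all when the median of neighbouring genes was subtracted (TUBG1 0.07, TUBG2 1.72, TUBA1A -0.03, TUBB6 -0.08). Of the other genes' fold changes 505 kept their side of the threshold, 12 gained it and 22 lost it. With 3 libraries a group and 87 to 92 counts for TUBG2 in wild-type cells on the drug, small differences of that gene were not detectable. Reads of near-identical copies and of TUBB limit what these counts can say about single genes.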
